A study of Homo sapiens with 19 samples.

Results

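The genes described here encode the enzymes that couple foreign compounds, hormones and bile products to glucuronic acid, sulfate or glutathione. They were chosen by symbol alone: UGT1A, UGT2A or UGT2B followed by digits, SULT followed by a digit, a letter and digits, and GST followed by K, M, O, P, T or Z with digits and an optional letter. The alpha class GSTA genes were left out. This gave 46 of 34825 gene symbols, of which 9 were UGT1A, 3 UGT2A, 7 UGT2B, 13 SULT and 14 GST genes. All libraries came from HepG2, a human liver cancer cell line. In the first experiment cells received 50 nM of a control siRNA (NTG), of siINO80#1 or of siINO80#2, with 3 libraries each, and were harvested after 72 h. In the second experiment cells were kept in 1 μM EPZ-6438, which blocks the histone methyltransferase EZH2, or in DMSO, starting 3 days before they received 50 nM of NTG or of siMCRS1. These cells too were harvested 72 h after the siRNA. The second experiment held 2 libraries of DMSO with NTG, 3 of DMSO with siMCRS1, 3 of EPZ-6438 with NTG and 2 of EPZ-6438 with siMCRS1. INO80 is the ATPase of the INO80 chromatin remodelling complex, and MCRS1 is one of its subunits. The labels do not say whether replicates were separate cultures, so p-values measure only the spread between these libraries.

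The deposited values are normalized counts, each a whole number of reads divided by 1 size factor per library. INO80 libraries held 17093574 to 25369547 reads and MCRS1 libraries 26038505 to 47397233, and 3 reads, taken as the floor for counting error, were worth 2.13 to 4.30 normalized counts. The tables were scaled separately, so levels were compared only within an experiment. INO80 had 1264 ± 82.2 normalized counts in NTG (SD, n = 3), and its mean was 48.1% of that with siINO80#1 and 36.4% with siINO80#2. MCRS1 was left at 7.99% of its NTG mean by siMCRS1 in DMSO and at 7.93% in EPZ-6438. All 13 listed liver and hepatoblastoma markers were present in every group. The summed level of 5 cholangiocyte markers was 14885 to 17383 normalized counts in NTG, 20482 to 23973 in siINO80#1 and 30236 to 34892 in siINO80#2, and 3 of the 5 had a mean of at least 10. In DMSO that sum was 25379.8 to 25912 with NTG and 35200.4 to 40912 with siMCRS1, with CFTR, one of the 5, at 0 throughout. The sum of 3 enterocyte markers was 5957 to 6923 in DMSO with NTG and 2721 to 3803 with siMCRS1, with SI at 0, and it was 4424 to 4949.8 in NTG of the INO80 experiment, 5909 to 7062 with siINO80#1 and 5128 to 5362 with siINO80#2. The sum of 6 lymphoid and myeloid markers, with CD3E at 0, was 37021 to 41001 in NTG, 39254 to 45324 with siINO80#1 and 49211 to 56260.0 with siINO80#2. The part of these markers in the results was not tested.

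UDP-glucuronosyltransferases (UGTs) sit in the endoplasmic reticulum and transfer glucuronic acid from UDP-glucuronate. Cytosolic sulfotransferases (SULTs) transfer the sulfonate group of PAPS, and glutathione S-transferases (GSTs) add glutathione to electrophiles. Hepatocytes carry out much of this conjugation, which makes their substrates more soluble and prepares them for bile or urine. The UGT1A genes on chromosome 2 are built from 1 locus, in which each gene has its own first exon and all share the remaining exons.

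Close copies matter for these genes because reads from shared sequence have to be divided between them. Of the words of 31 bases in the canonical SULT1A3 transcript, 100% also occurred in a transcript of another gene, and for SULT1A4 the share was 99.8%. SULT1A1 shared 78.8% of its words and SULT1A2 shared 69.5%. Within the UGT1A locus the shares ran from 60.0% for UGT1A6 to 83.5% for UGT1A3. By contrast SULT2A1 shared 8.96%, GSTM3 shared 7.21%, and GSTK1 and GSTZ1 shared none. The submitters' processing notes name kallisto, which divides shared reads by estimation, so levels of single UGT1A, SULT1A, UGT2B11, GSTM1, GSTM2 and GSTT2B genes are uncertain where their copies are also read.

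**Figure D1:**
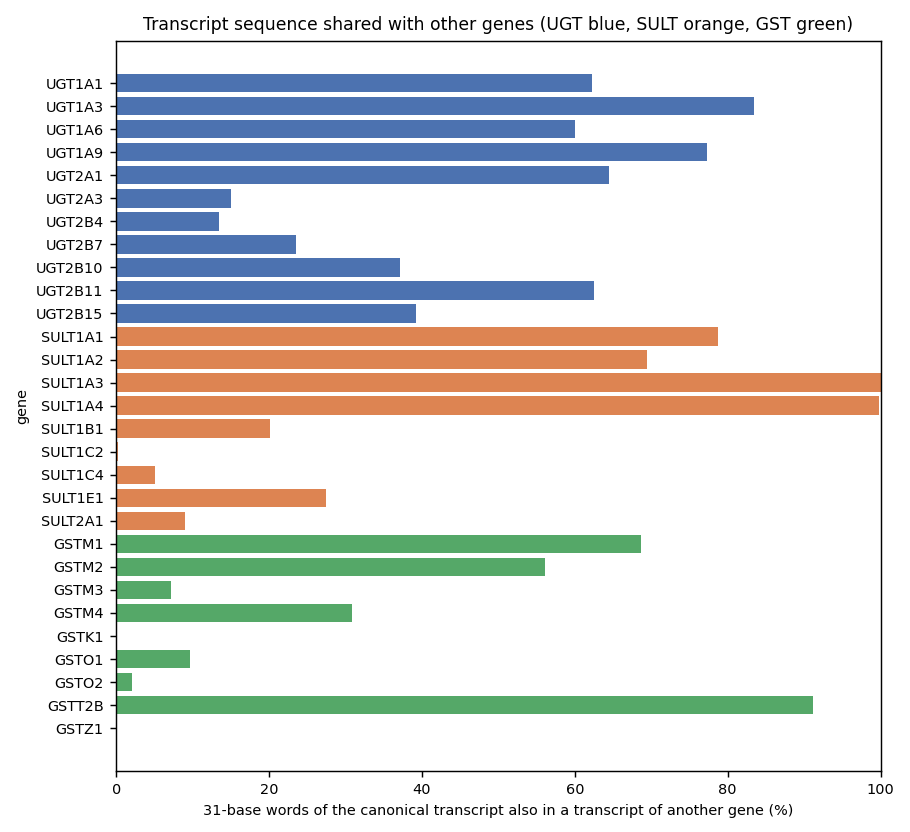
Horizontal bars give, for each gene tested in either experiment except GSTT1 (not in the transcript set used), the percentage of 31-base words of its canonical transcript that also occur in a transcript of another gene. SULT1A3 and SULT1A4 reach 100% and 99.8%, whereas GSTK1 and GSTZ1 are at 0.

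The 120 bases before a RefSeq start of 5 genes are printed here as examples, from the GRCh38.p14 assembly. SULT2A1 and SULT1E1 were lower after INO80 knockdown, though the siINO80#1 call of SULT1E1 was lost in some fits. UGT2B11 was higher with both INO80 siRNAs and UGT2B10 with siINO80#1, and UGT1A1 differed between the INO80 siRNAs. The window of UGT2B11 lies inside its RefSeq gene span, chr4:69199951-69224984, so it precedes a start other than the outermost one. In the first 3 lines capitals mark GTTAAT, a core word of HNF1 sites, and the TATA word TATAAA on either strand, which overlap nowhere in these windows. In the last 2 lines capitals mark the bases at which the windows of UGT2B10 and UGT2B11 differ.
SULT2A1 (chr19:47886316-47886435, minus strand): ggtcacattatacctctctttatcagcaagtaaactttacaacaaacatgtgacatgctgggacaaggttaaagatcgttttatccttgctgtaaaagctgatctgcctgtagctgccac
SULT1E1 (chr4:69860146-69860265, minus strand): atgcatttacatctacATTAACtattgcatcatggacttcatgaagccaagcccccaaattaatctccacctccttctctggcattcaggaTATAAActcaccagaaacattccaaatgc
UGT1A1 (chr2:233760150-233760269, plus strand): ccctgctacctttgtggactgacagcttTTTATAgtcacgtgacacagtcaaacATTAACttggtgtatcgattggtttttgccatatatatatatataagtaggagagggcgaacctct
UGT2B10 (chr4:68815874-68815993, plus strand): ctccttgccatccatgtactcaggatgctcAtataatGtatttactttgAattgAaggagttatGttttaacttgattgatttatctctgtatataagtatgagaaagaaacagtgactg
UGT2B11 (chr4:69214749-69214868, minus strand): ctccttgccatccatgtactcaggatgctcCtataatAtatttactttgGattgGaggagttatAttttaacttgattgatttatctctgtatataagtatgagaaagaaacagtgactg

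The windows of UGT2B10 and UGT2B11 were the same at 115 of 120 bases, and those of SULT1A3 and SULT1A4 at 120 of 120. Promoters of 250 bases were found for 35 of the 46 genes, 37 promoters in all. GTTAAT stood in 16.2% of them against 6.23% of all 35116 promoters, and the TATA word in 27.0% against 10.7%. The core of the antioxidant response element, TGACNNNGC, was in 24.3% against 10.9%, and the core of the xenobiotic response element, GCGTG, in 29.7% against 32.2%, each searched on both strands. Many of these promoters are copies of one another, and the matches are descriptions of the letters.

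Per kilobase of canonical transcript, which was known for all members but GSTT1, the highest level in NTG of the INO80 experiment was that of GSTO1, an omega class transferase that reduces dehydroascorbate, at 4254 ± 295 normalized counts per kb (SD, n = 3). SULT2A1, which sulfonates dehydroepiandrosterone and bile acids, followed at 2488 ± 386. SULT1A4 stood at 1536 ± 78.9, SULT1A1 at 869 ± 58.4 and SULT1A3 at 777 ± 147 per kb, and the last pair overlapped between libraries. The highest UGT was UGT2A3 at 702 ± 58.9 per kb, followed by UGT2B7 at 490.4 ± 10.2 and UGT2B10 at 317 ± 52.1. UGT1A1, the bilirubin transferase, had 53.4 ± 7.61 per kb. GSTO1, SULT2A1, SULT1A4 and SULT1A1 held the first 4 places in DMSO with NTG of the other experiment too.

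Genes averaging 10 or more normalized counts in an experiment were tested. This held for 28 of the 46 genes in the INO80 experiment and for 29 in the MCRS1 experiment. GSTM1, UGT1A3 and UGT1A6 in the first, and GSTM1, GSTT2B, UGT1A9 and UGT2A1 in the second, passed although at least 1 group had a mean under 10. With siINO80#1, 5 members were higher and 15 lower than in NTG at an adjusted p under 0.05, where 20.7% of all tested genes were higher and 20.8% lower. With siINO80#2, 5 were higher and 16 lower, against 26.6% and 28.4% of all genes. The median log2 fold change of the members was -0.54 with siINO80#1 and -0.43 with siINO80#2, and that of all genes was 0.00 in both. The INO80 siRNAs share their NTG libraries. With siMCRS1, 3 members were higher and 12 lower in DMSO, against 23.1% and 24.6% of all genes, with a median of -0.23 beside 0.00 for all genes. In EPZ-6438, 5 were higher and 14 lower, against 26.8% and 26.9% of all genes, with a median of -0.53 beside 0.01.

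**Figure D2:**
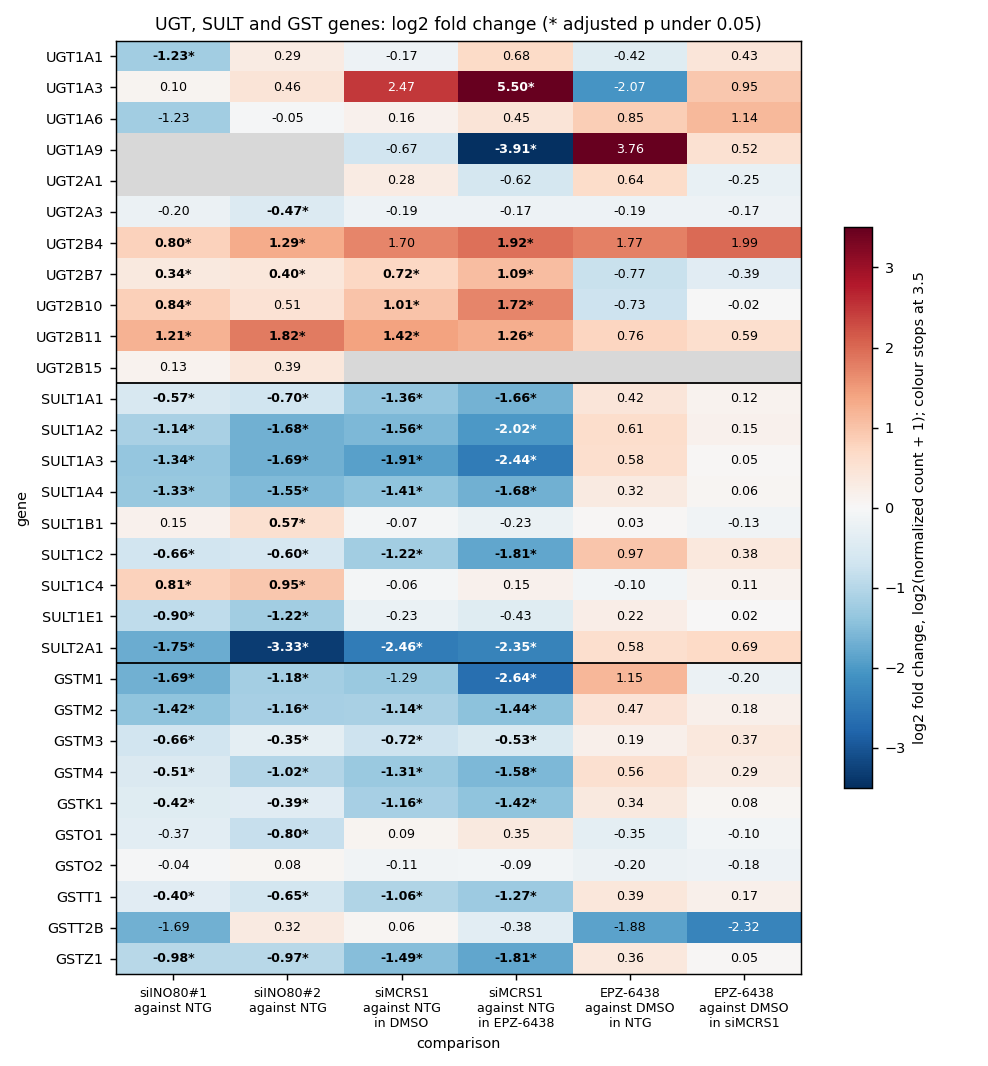
Each cell gives the log2 fold change on the log2(normalized count + 1) scale of 1 gene (rows: UGT, SULT and GST genes) in 1 comparison (columns), coloured from blue (lower) to red (higher), with an asterisk where the limma adjusted p was under 0.05 and grey where the gene was not tested. SULT1A1 to SULT1A4, SULT1C2, SULT2A1, GSTM2 to GSTM4, GSTK1, GSTT1 and GSTZ1 carry negative marked values in the first 4 columns, and no cell is marked in the last 2 columns. UGT1A9 was tested only because of its level in EPZ-6438 with NTG, so its marked value is not read as a result.

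Among the sulfotransferases, SULT2A1 had the lowest log2 fold change on the log2(value + 1) scale with either INO80 siRNA. Its level was 4279, 4348 and 5585 normalized counts in NTG libraries A, B and C, 1475, 1283 and 1454 with siINO80#1, and 481, 531 and 396 with siINO80#2. Each of the 3 groups lay apart from the others. The log2 fold change against NTG was -1.75 with siINO80#1 (standard error 0.13, adjusted p = 4.4e-06) and -3.33 with siINO80#2 (standard error 0.13, adjusted p = 8.6e-08), which left 29.6% and 9.91% of the NTG mean. The siRNAs differed from each other by a log2 value of -1.59 (standard error 0.13, adjusted p = 5.8e-05). INO80 itself was lower with siINO80#2 than with siINO80#1 (log2 difference -0.40, adjusted p = 0.0058), and a link between these differences was not tested.

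All 4 SULT1A genes were lower with either INO80 siRNA, beside 20.8% of all genes with siINO80#1 and 28.4% with siINO80#2. SULT1A3 and SULT1A4, which encode the dopamine sulfotransferase and lie at chr16:30199255-30204310 and chr16:29459913-29464966, summed to 2991, 3014 and 3401 normalized counts in NTG. The sum was 1290.0, 1132 and 1311 with siINO80#1 and 1145, 1057 and 920.2 with siINO80#2, so both knockdowns were below every NTG library. On their own, SULT1A4 changed by -1.33 with siINO80#1 and -1.55 with siINO80#2, and SULT1A3 by -1.34 and -1.69. SULT1A1 and SULT1A2, which act on small phenols, had log2 fold changes of -0.57 and -1.14 with siINO80#1 and of -0.70 and -1.68 with siINO80#2. The adjusted p of these 8 tests ran from 3.3e-06 to 1.5e-04. SULT1A2 was lower with siINO80#2 than with siINO80#1 (log2 difference -0.54, adjusted p = 0.025), a call that was lost when any of 4 libraries was left out. SULT1A1 and SULT1A2 summed to 1 row did not pass between the siRNAs (-0.20, adjusted p = 0.089).

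SULT1C2 had 209, 229 and 288 normalized counts in NTG, 136, 152 and 168 with siINO80#1, and 132, 152 and 197 with siINO80#2, and passed the test in both (log2 fold changes -0.66 and -0.60, adjusted p = 0.01 and 0.012). Without NTG library C its siINO80#2 value was -0.47 (adjusted p = 0.056). SULT1E1, the estrogen sulfotransferase, had 58.0, 29.8 and 50.9 normalized counts in NTG against 20.3, 27.8 and 22.7 with siINO80#1. With siINO80#2 it had 17.9, 20.7 and 17.0, and its log2 fold changes were -0.90 (adjusted p = 0.023) and -1.22 (adjusted p = 0.0031). NTG library B was near the siINO80#1 libraries, and the siINO80#1 call was lost when NTG library A or C, or siINO80#1 library A or C, was left out (adjusted p = 0.063 to 0.096).
SULT1C4, a near neighbour of SULT1C2 on chromosome 2, went the other way, from 44.6, 38.0 and 40.3 normalized counts in NTG to 73.9, 58.5 and 87.5 with siINO80#1 and 77.4, 82.7 and 79.4 with siINO80#2 (log2 fold changes 0.81 and 0.95, adjusted p = 0.0039 and 9.5e-04). SULT1B1, which acts on thyroid hormones and phenols, passed the test only with siINO80#2 (0.57, adjusted p = 0.02), where library C had 826 normalized counts against 501 and 461 in A and B and 362 to 408 in NTG. Without siINO80#2 library C it was 0.31 (adjusted p = 0.014), and without NTG library B 0.52 (adjusted p = 0.063). Its difference between the siRNAs did not pass (0.42, adjusted p = 0.12).

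The mu class GST genes on chromosome 1, from GSTM4 at chr1:109656099-109667727 to GSTM3 at chr1:109733937-109741038, were lower with both siRNAs in 4 of 4 members tested. Of all genes, 20.8% were lower with siINO80#1 and 28.4% with siINO80#2. GSTM2 had 284, 258 and 321 normalized counts in NTG, 104, 110.1 and 105 with siINO80#1 and 114, 124 and 147 with siINO80#2, and no knockdown library reached an NTG library. Its log2 fold changes were -1.42 (adjusted p = 1.8e-05) and -1.16 (adjusted p = 3.2e-05). GSTM4 fell by 0.51 on the log2 scale with siINO80#1 and by 1.02 with siINO80#2, and GSTM3 by 0.66 and 0.35. The order of the siRNAs was thus opposite for these neighbours: GSTM4 was lower with siINO80#2 than with siINO80#1 (-0.51, adjusted p = 0.02) and GSTM3 higher (0.31, adjusted p = 0.025). The GSTM4 difference lost its call without siINO80#1 library A or siINO80#2 library A (adjusted p = 0.081 and 0.062), and that of GSTM3 in 4 of the fits with 1 library left out. GSTM1 was low, at 27.9, 23.6 and 37.4 normalized counts in NTG, and had 6.12 to 9.91 with siINO80#1 and 8.42 to 16.1 with siINO80#2 (-1.69 and -1.18, adjusted p = 0.0022 and 0.011). Without NTG library C the siINO80#2 value was -1.01, with an adjusted p of 0.052.

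Of the other GST genes, GSTZ1, the maleylacetoacetate isomerase of tyrosine breakdown, went from 357, 366 and 419 normalized counts in NTG to 192, 178 and 205 with siINO80#1 and 209.8, 201 and 172 with siINO80#2. Both groups lay below NTG (log2 fold changes -0.98 and -0.97, adjusted p = 7.6e-05 and 4.2e-05). GSTT1, a theta class enzyme that acts on small halogenated compounds, fell to 75.9% and 64.0% of NTG (adjusted p = 0.0091 and 2.8e-04). GSTK1, the kappa class enzyme of mitochondria and peroxisomes, fell to 74.4% and 76.5% (adjusted p = 0.0022 and 0.0025). GSTO1 passed only with siINO80#2 (-0.80, adjusted p = 0.0066), where library C had 1281 normalized counts against 2458 and 2455 in A and B and 3236 to 3713 in NTG. Without library C it was -0.49 (adjusted p = 2.9e-04). With siINO80#1 it had a log2 value of -0.37 (adjusted p = 0.18, or 0.0021 in a fit of these 2 groups alone). GSTO2 had log2 fold changes of -0.04 and 0.08 (adjusted p = 0.82 and 0.61). GSTT2B, at 18.5 to 23.4 normalized counts in NTG, was at 0 in siINO80#1 library A, where its copy GSTT2 had 10.7, and did not pass with either siRNA. Without siINO80#1 library B its siINO80#1 value was -2.59 (adjusted p = 0.038).

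Of 5 tested UGT2B genes, all on chromosome 4, 4 rose with siINO80#1 and 3 with siINO80#2, beside 20.7% and 26.6% of all genes. UGT2B11, which shares 35.6% of its words with UGT2B28, had 31.2, 16.4 and 34.6 normalized counts in NTG, 62.0, 49.6 and 76.1 with siINO80#1, and 71.8, 119 and 99.2 with siINO80#2. Both knockdown groups were above NTG, by 1.21 (adjusted p = 0.0077) and 1.82 (adjusted p = 4.1e-04) on the log2 scale. UGT2B10, which glucuronidates tertiary amines such as nicotine, had 1036, 761 and 828 normalized counts in NTG and 1873, 1296 and 1538 with siINO80#1 (0.84, adjusted p = 0.0084). With siINO80#2 it had 1044, 1771 and 1026, which overlapped NTG (0.51, adjusted p = 0.059). With 1 library left out its value ran from 0.26 without siINO80#2 library B (adjusted p = 0.20) to 0.65 without siINO80#2 library C (adjusted p = 0.029), and edgeR gave 0.57 (adjusted p = 0.043). UGT2B4, which acts on bile acids, had 42.4, 56.5 and 87.4 in NTG, 95.4, 75.4 and 157 with siINO80#1 and 135, 147 and 159.7 with siINO80#2. Its value was 0.80 (adjusted p = 0.048) and 1.29 (adjusted p = 0.0032), and the siINO80#1 call was lost without NTG library A or B or siINO80#1 library A or C (0.51 to 0.86, adjusted p = 0.076 to 0.19) and in edgeR (adjusted p = 0.051). UGT2B7, which conjugates morphine and steroids, rose to 127% and 133% of NTG (0.34 and 0.40, adjusted p = 0.019 and 0.0064), and its siINO80#1 call was lost without NTG library A or siINO80#1 library A or C (adjusted p = 0.059 to 0.073). The 7 UGT2B rows summed to 1903 ± 124 normalized counts in NTG, 2928 ± 371 with siINO80#1 and 2770.0 ± 585 with siINO80#2 (SD, n = 3 each). UGT2B15, at 8.64 to 14.4 in NTG, did not pass (0.13 and 0.39).

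UGT1A1 was the one UGT1A gene to pass, and it separated the INO80 siRNAs. It had 122, 111 and 146 normalized counts in NTG and 54.8, 43.6 and 62.1 with siINO80#1, and every siINO80#1 library was below every other library. With siINO80#2 it had 101, 172 and 206, on both sides of NTG. The log2 fold change was -1.23 with siINO80#1 (standard error 0.25, adjusted p = 0.0026) and 0.29 with siINO80#2 (standard error 0.25, adjusted p = 0.35), or 0.58 without siINO80#2 library A (adjusted p = 0.032). The difference between the siRNAs was 1.51 (standard error 0.25, adjusted p = 0.0022). All 9 UGT1A rows together, which do not depend on how reads were divided within the locus, summed to 147, 139 and 173 normalized counts in NTG, 77.5, 57.5 and 92.7 with siINO80#1 and 123, 224 and 283 with siINO80#2. UGT1A7 was under the filter at 1.03 to 4.46 normalized counts in NTG and 1.19 to 6.12 with siINO80#1, and had 10.4 to 17.6 with siINO80#2. UGT2A1, also under it, had 5.76 to 15.5 over the 9 libraries. UGT1A3 was at 0 in 1 library of each group, and neither it nor UGT1A6 passed. UGT2A3 had 1969.7, 2009.9 and 2292 normalized counts in NTG and 1394, 1441 and 1704 with siINO80#2 (-0.47, adjusted p = 0.002), while siINO80#1 gave -0.20 (adjusted p = 0.12).

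Between the siRNAs, 2 members were higher with siINO80#2 (UGT1A1 and GSTM3) and 3 lower (SULT2A1, SULT1A2 and GSTM4), against 9.48% and 12.6% of all genes. SULT2A1 and UGT1A1 were called in every fit with 1 library left out.

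**Figure D3:**
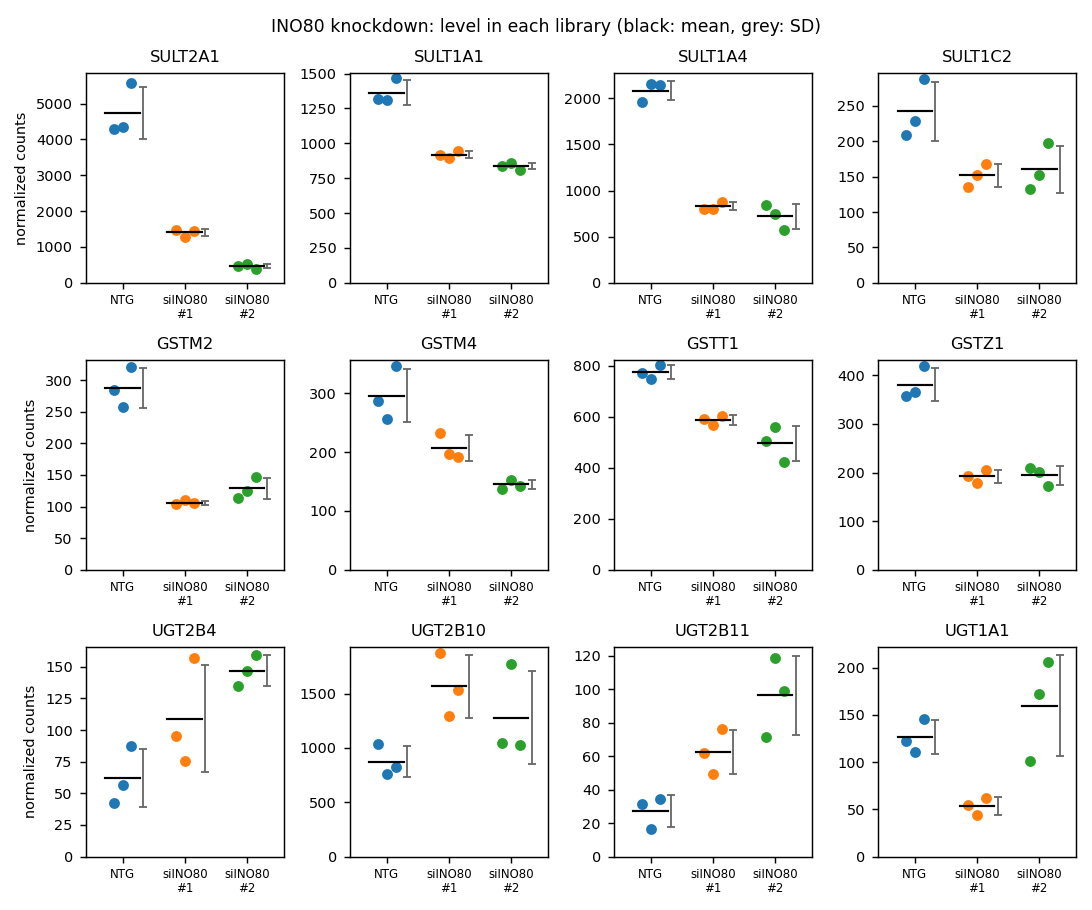
Each panel plots the normalized counts (linear axis from 0) of 1 gene in every library of NTG, siINO80#1 and siINO80#2, with points for libraries, a black line for the mean and a grey bar for the SD (n = 3 per group). SULT2A1 steps down from NTG to siINO80#1 and again to siINO80#2, UGT2B11 lies above NTG in both knockdowns, and UGT1A1 is low only in the siINO80#1 libraries, at 43.6 to 62.1.

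With siMCRS1, 6 of 9 tested sulfotransferase genes were lower than with NTG in each medium, beside 24.6% of all genes in DMSO and 26.9% in EPZ-6438. SULT2A1 had 5081 and 5080.0 normalized counts in the DMSO NTG libraries and 1152, 922 and 745 with siMCRS1, which is 18.5% of the NTG mean (log2 fold change -2.46, standard error 0.19, adjusted p = 1.5e-05). In EPZ-6438 it had 7614, 7557 and 7625 with NTG and 1865 and 1193 with siMCRS1 (-2.35, standard error 0.19, adjusted p = 1.1e-05). Thus in both media the siMCRS1 libraries were far below the NTG libraries.
SULT1A3 and SULT1A4 together summed to 4379 and 3347 normalized counts in DMSO with NTG and 1915, 1324 and 997 with siMCRS1. In EPZ-6438 the sum was 5025, 5222 and 4763 with NTG and 1751 and 1158 with siMCRS1. The log2 fold changes of the 4 SULT1A genes ran from -1.36 for SULT1A1 to -1.91 for SULT1A3 in DMSO and from -1.66 to -2.44 for these genes in EPZ-6438, and all 8 tests passed (adjusted p at most 0.004). SULT1C2 fell to 42.4% of NTG in DMSO and to 29.3% in EPZ-6438 (adjusted p = 0.0033 and 2.3e-04). SULT1B1, SULT1C4 and SULT1E1 did not pass in either medium, with log2 values between -0.43 and 0.15. SULT1C4 had 46.9 and 71.6 normalized counts in DMSO with NTG and 44.5, 59.5 and 64.5 with siMCRS1, which overlapped.

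Among the GST genes, GSTZ1 had 503 and 453 normalized counts in DMSO with NTG and 213, 139 and 163 with siMCRS1 (-1.49, adjusted p = 1.3e-04). In EPZ-6438 it had 647, 606 and 589 with NTG and 195 and 156 with siMCRS1 (-1.81, adjusted p = 2.9e-05). GSTT1 fell to 48.3% and 41.5% of NTG, GSTK1 to 45.7% and 38.4%, and GSTM4 to 40.2% and 33.4% in DMSO and EPZ-6438, all past the test. GSTM2 passed in both media (-1.14 and -1.44, adjusted p = 0.0055 and 0.0012), though its DMSO call was lost without DMSO NTG library 3 (adjusted p = 0.071). GSTM3 fell to 61.4% and 69.0% of NTG (adjusted p = 0.0019 and 0.0084). GSTM1 passed in EPZ-6438, from 35.6, 96.6 and 62.0 normalized counts with NTG to 7.20 and 10.7 with siMCRS1 (-2.64, adjusted p = 0.0026), and not in DMSO (-1.29, adjusted p = 0.083). The 5 GSTM rows summed to 1654 and 1756 normalized counts in DMSO with NTG and 947, 967 and 791 with siMCRS1. GSTO1 had 6307 and 6100.2 normalized counts in DMSO with NTG and 6036 to 6975 with siMCRS1, with log2 values of 0.09 in DMSO and 0.35 in EPZ-6438 (adjusted p = 0.61 and 0.054), and the latter passed without EPZ-6438 NTG library 1 or siMCRS1 library A (adjusted p = 0.0077 and 0.048). GSTO2 and GSTT2B did not pass in either medium.

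With siMCRS1, 3 of 4 tested UGT2B genes rose in DMSO and 4 of 4 in EPZ-6438, beside 23.1% and 26.8% of all genes, with wide spread between libraries. With libraries rescaled to equal totals, none was called higher in DMSO. UGT2B10 had 2349 and 1290.3 normalized counts in DMSO with NTG and 5873, 2966 and 2491 with siMCRS1 (1.01, standard error 0.34, adjusted p = 0.031). In EPZ-6438 it had 1168, 1178 and 846 with NTG and 3956 and 3053 with siMCRS1 (1.72, standard error 0.34, adjusted p = 0.0016). UGT2B7 had 1451 and 1326 normalized counts in DMSO with NTG and 2772, 2130.1 and 2017 with siMCRS1 (0.72, adjusted p = 0.017), and in EPZ-6438 it rose to 216% of NTG (1.09, adjusted p = 0.0014). UGT2B11 rose to 267% and 251% of NTG (adjusted p = 0.025 and 0.038). UGT2B4 had 114 and 43.9 normalized counts in DMSO with NTG and 356, 292 and 120.3 with siMCRS1 (1.70, adjusted p = 0.078), and 434, 98.0 and 337 against 1794 and 474 in EPZ-6438 (1.92, adjusted p = 0.046). Without DMSO NTG library 3, the DMSO values were 0.58 for UGT2B10 (adjusted p = 0.27), 0.83 for UGT2B11 (adjusted p = 0.23) 0.65 for UGT2B7 (adjusted p = 0.091) and 1.02 for UGT2B4 (adjusted p = 0.40), and without DMSO siMCRS1 library 1 none of these was called. Without DMSO siMCRS1 library 3 UGT2B4 was at 2.17 (adjusted p = 0.041). The DMSO call was also lost for UGT2B11 without siMCRS1 library 2 (adjusted p = 0.065) and for UGT2B7 without NTG library 1 (adjusted p = 0.058). Without EPZ-6438 siMCRS1 library A, the EPZ-6438 values were 0.76 for UGT2B11 (adjusted p = 0.29) and 0.96 for UGT2B4 (adjusted p = 0.37), and neither was called without EPZ-6438 NTG library 2 or 3 (adjusted p = 0.053 to 0.14).

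Libraries with siMCRS1 also had larger totals, 37296662 to 40177962 normalized counts in DMSO against 32119248 to 33466237 with NTG. Rescaling all libraries to equal totals moved the median of all genes to -0.23 in both siMCRS1 comparisons and to -0.11 with siINO80#2. The members called were then 0 higher and 14 lower for siMCRS1 in DMSO, 3 and 15 in EPZ-6438, 3 and 16 for siINO80#1, and 4 and 16 for siINO80#2. Of all calls, the share that was higher went from 48.4% to 27.1% for siMCRS1 in DMSO, from 49.9% to 30.2% in EPZ-6438, from 49.9% to 39.8% for siINO80#1 and from 48.3% to 38.7% for siINO80#2. Under this scaling UGT2B7 kept a positive value with each knockdown and stayed called only for siMCRS1 in EPZ-6438. No lower member lost its call, but this scaling moved genes downward in the knockdowns and so could hardly remove a lower call. Over all genes, lower calls went from 3523 to 5098 for siMCRS1 in DMSO.

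The UGT1A rows were low and uneven. UGT1A3 had 33.5 and 4.77 normalized counts in DMSO with NTG and 101, 99.1 and 45.8 with siMCRS1 (2.47, adjusted p = 0.16). In EPZ-6438 it had 36.6, 0 and 0 with NTG and 112 and 202 with siMCRS1 (5.50, standard error 1.35, adjusted p = 0.0056). UGT1A9 had 34.5, 24.9 and 46.3 normalized counts in EPZ-6438 with NTG and 0 and 4.44 with siMCRS1. It reached the mean of 10 only through EPZ-6438 with NTG, so the lower count of siMCRS1 in EPZ-6438, which includes it, rests on 13 other members. Its own tests, marked or counted elsewhere, are not read as results. UGT1A1 overlapped between groups in DMSO (-0.17, adjusted p = 0.82) and in EPZ-6438 (0.68, adjusted p = 0.32). The 9 UGT1A rows summed to 245 and 139 normalized counts in DMSO with NTG, 407, 187 and 208 in DMSO with siMCRS1, 240.3, 281 and 158 in EPZ-6438 with NTG, and 346 and 476 in EPZ-6438 with siMCRS1. Tested as 1 row, this sum was not called with siMCRS1 in DMSO (0.44, adjusted p = 0.35) or in EPZ-6438 (0.88, adjusted p = 0.063). The sum also holds UGT1A rows that were not called, so it can miss the threshold when 1 row differs. Whether the UGT1A3 call in EPZ-6438 depends on how reads were divided within the locus was not tested. UGT2A3 had log2 values of -0.19 and -0.17 and did not pass, and UGT2A1 stayed between 6.61 and 18.6 normalized counts in this experiment.

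**Figure D4:**
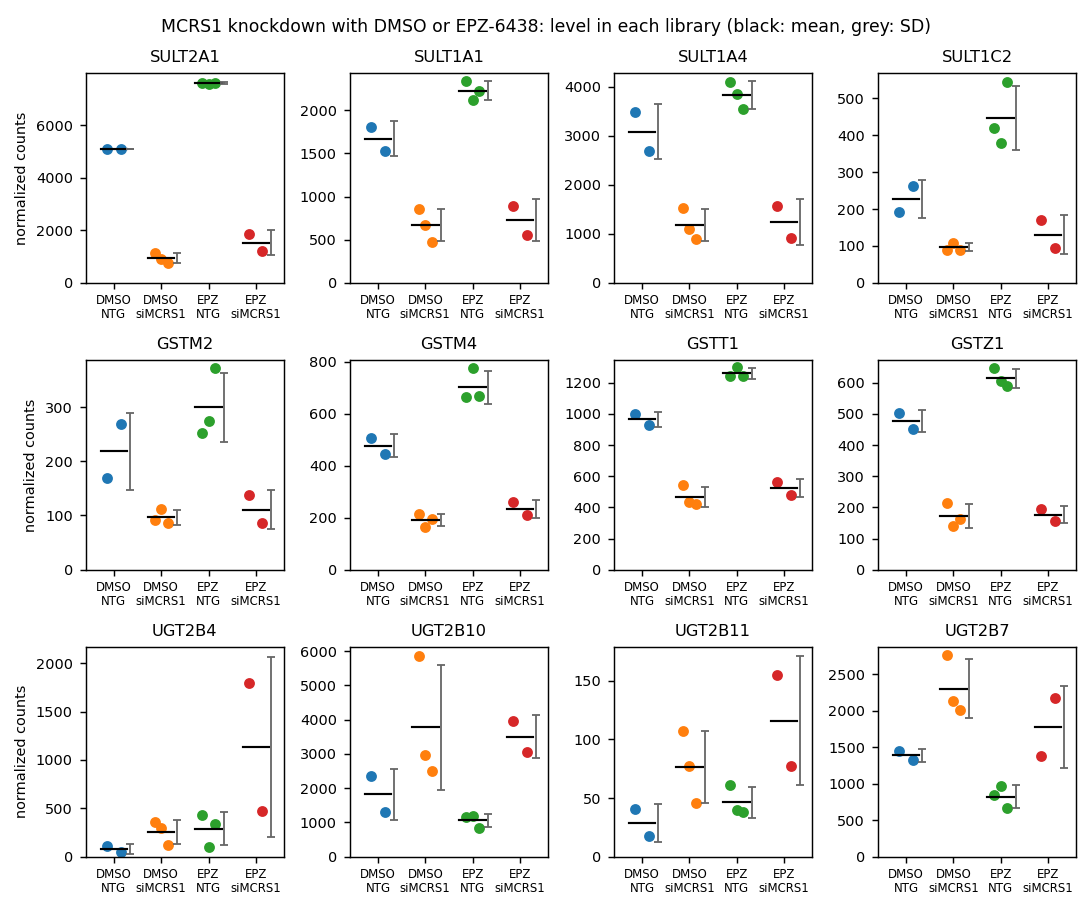
Each panel plots the normalized counts (linear axis from 0) of 1 gene in every library of the MCRS1 experiment, with points for libraries, a black line for the mean and a grey bar for the SD (n = 2 or 3; EPZ stands for EPZ-6438). The SULT and GST panels show siMCRS1 below NTG in both media, and the UGT2B panels show higher means with siMCRS1 and wider spread, as in UGT2B4 at 1794 and 474 in EPZ-6438.

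EPZ-6438 on its own changed no member past the threshold. In NTG cells 0 of 29 members were called by limma, against 0.321% of all genes higher and 0.0629% lower. An unadjusted p under 0.05 was found for 10 members, UGT1A9 among them, beside 17.1% of all genes. In siMCRS1 cells 0 were called, against 0.0838% higher and 0.00699% lower, with 4 members at an unadjusted p under 0.05, beside 9.12% of all genes. The edgeR test also called 0 in both. The members' median was 0.36 in NTG and 0.11 in siMCRS1, beside -0.03 and -0.02 for all genes. SULT2A1 was at 149.6% of its DMSO mean in NTG cells and at 163% in siMCRS1 cells, with no overlap between libraries in either (0.58 and 0.69, adjusted p = 0.18 and 0.30). SULT1C2 was at 197% (0.97, adjusted p = 0.12), GSTM4 at 147% (0.56, adjusted p = 0.13) and UGT1A6 at 183% (0.85, adjusted p = 0.28) in NTG cells. UGT2B7 had the opposite sign, at 59.3% of DMSO (-0.77, adjusted p = 0.12). UGT1A9, tested only because of its level in EPZ-6438 with NTG, had 5.74 and 0 normalized counts in DMSO with NTG. The NTG libraries of each medium serve both the drug and the siMCRS1 comparisons.

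The effect of siMCRS1 did not differ between EPZ-6438 and DMSO past the threshold for any member. The interaction was called for 0 of 29 members by limma and by edgeR, beside 0% of all genes. An unadjusted p under 0.05 held for 2.35% of all genes and for 1 member, UGT1A9, which reached the filter only through EPZ-6438 with NTG. For SULT2A1 the difference of the effects was 0.11 (standard error 0.27), for GSTZ1 -0.31 (standard error 0.26), and for UGT2B10 0.71 (standard error 0.49).

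The remaining members were near the floor. In the INO80 experiment 18 genes were under the filter, of which GSTO3P, SULT1C3, SULT4A1, UGT1A4, UGT1A5 and UGT2A2 were at 0 in every library, and in the MCRS1 experiment 17, of which SULT1C3 was at 0 throughout. GSTP1, the pi class gene, reached at most 1.92 normalized counts in the INO80 experiment and 2.13 in the other, below or near the worth of 3 reads. UGT2B15 was tested in the INO80 experiment only, and in the MCRS1 experiment it had 1.91 to 7.63 normalized counts in DMSO with NTG and 6.46 to 16.8 in EPZ-6438 with NTG. GSTT2 was at 0 in most libraries and reached 21.0 in EPZ-6438 with NTG library 3, where GSTT2B was at 0.

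The genes that supply and finish the conjugation reactions were counted in the same fits. Of all genes, 20.7% were higher and 20.8% lower with siINO80#1, 26.6% and 28.4% with siINO80#2, 23.1% and 24.6% with siMCRS1 in DMSO, and 26.8% and 26.9% in EPZ-6438, and a count at or below these shares is no result about a list. For glutathione supply and mercapturate steps, 3 of 19 tested genes were higher and 9 lower with siINO80#1, 3 and 12 with siINO80#2, 6 and 10 with siMCRS1 in DMSO, and 6 and 11 in EPZ-6438. DPEP1, a dipeptidase of glutathione conjugates, fell in all 4, with log2 fold changes of -1.28, -1.90, -2.57 and -3.64. GCLC, the catalytic subunit of glutamate-cysteine ligase, rose with siMCRS1 by 1.41 in DMSO and 1.75 in EPZ-6438 (adjusted p = 3.7e-05 and 8.5e-06), and so did the cystine transporter SLC7A11 (1.27 and 1.79, adjusted p = 0.0085 and 0.001). GCLC was also called higher with siINO80#1 and siINO80#2. SLC7A11 was lower with siINO80#1 (-0.46, adjusted p = 0.013) and siINO80#2 (-0.69, adjusted p = 8.8e-04). MGST1, a membrane-bound glutathione transferase, fell with siINO80#2 (-1.50, adjusted p = 3.5e-07). It was also called lower with siINO80#1 and with siMCRS1 in DMSO, and not with siMCRS1 in EPZ-6438.
For PAPS supply and sulfate removal, 1 of 13 was higher and 2 lower with siINO80#1, 2 and 2 with siINO80#2, 4 and 5 with siMCRS1 in DMSO, and 6 and 4 in EPZ-6438. For siINO80#1 and siINO80#2 these counts were below the shares of all genes. SLC26A1, a sulfate transporter, fell with siMCRS1 in DMSO (-1.28, adjusted p = 0.0023) and in EPZ-6438 (-1.96, adjusted p = 1.3e-04). It was also called lower with siINO80#1 and siINO80#2. PAPSS2, a PAPS synthase, was higher in EPZ-6438 than in DMSO in siMCRS1 cells (2.79, adjusted p = 0.041). For UDP-glucuronate supply and removal, 2 of 6 were higher and 1 lower with siINO80#1, 0 and 4 with siINO80#2, 2 and 2 with siMCRS1 in DMSO, and 3 and 2 in EPZ-6438. GUSB, the lysosomal glucuronidase, fell with siMCRS1 in DMSO (-1.13, adjusted p = 6.8e-05) and in EPZ-6438 (-1.41, adjusted p = 1.3e-05). It was also called lower with siINO80#2.

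Other conjugating transferases, such as the ACSM and N-methyl or acetyl transferase genes, had these counts: 0 of 13 higher and 8 lower with siINO80#1, 0 and 9 with siINO80#2, and of 15 tested 0 and 9 with siMCRS1 in DMSO and 0 and 12 in EPZ-6438, beside 20.7% to 26.8% of all genes higher and 20.8% to 28.4% lower. ACSM2A, a medium-chain acyl-CoA synthetase of glycine conjugation, had log2 fold changes of -2.19, -2.08, -2.04 and -2.52 in these comparisons. ACSM3, of the same family, was called lower with each knockdown and was higher with EPZ-6438 in NTG cells (1.86, adjusted p = 0.03).
Of 21 tested regulators of conjugation genes, 3 were higher and 4 lower with siINO80#1, 2 and 10 with siINO80#2, 6 and 10 with siMCRS1 in DMSO, and 5 and 9 in EPZ-6438. With siINO80#1 both counts were below the shares of all genes, 20.7% and 20.8%. NR1H4, the bile acid receptor FXR, fell in each, with log2 fold changes of -1.93, -3.16, -1.38 and -1.30 (adjusted p = 8.9e-06, 2.9e-07, 7.1e-05 and 6.1e-05). HNF4A, a hepatocyte nuclear receptor, fell with siINO80#2 (-1.02, adjusted p = 1.9e-06), and so did CEBPA, a liver-enriched factor (-1.87, adjusted p = 3.6e-04). HNF4A was also called lower with siINO80#1 and with siMCRS1 in both media. CEBPA was also called lower with siMCRS1 in both media, and not with siINO80#1. AHR, the dioxin receptor, rose by 1.45 and 1.85 with siMCRS1, and was also called higher with siINO80#1 and siINO80#2.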

How the data were processed

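Libraries were made from HepG2 RNA with a stranded mRNA kit, and the submitters' processing notes name kallisto, DESeq2 and GRCh38, without versions. The authors deposited 2 tables of normalized signal (counts per gene over a library's size factor, with no negative values), and 100% of values were whole multiples of 1 step per library (tolerance 0.001 reads). These reads may be rounded estimates. Values were transformed as log2(value + 1), which understates changes of low genes. Genes with a mean of at least 10 (14034 and 14312) were tested with limma 3.58.1 in R 4.3.3 (lmFit, eBayes with a trend, all groups of a table in 1 fit), with Benjamini-Hochberg adjustment over the table and a threshold of 0.05. Replicate pairs differed by 9.45 to 121 times sampling noise (chi-square per degree of freedom, 17 pairs). Over all genes siINO80#2 library C stood apart, at 84.3 against library A and 121 against library B. Libraries A and B of that group gave 18.7, and pairs within NTG or siINO80#1 gave 9.45 to 13.2. Library groups came from the labels. Most columns of the MCRS1 experiment carry numbers in place of the labels' letters.

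Named genes were every tested member, untested members with a library of at least 10 normalized counts, ends of a range, and called pathway genes whose mean was 50 or more and whose absolute log2 fold change was 1 or more. Only some of the last are given. GSTP1 was added after its values were seen. Members and lists were chosen with earlier results of these data known. Shared words came from GENCODE v44 transcripts and promoters and positions from RefSeq (GRCh38.p14). Alternatives were other pseudocounts and filters, scalings, fits, left-out libraries, and, chosen after seeing the data, edgeR 4.0.16 on the recovered reads and families sharing sequence summed to 1 row. The model was tested on simulated data. Python 3.11.15, numpy 2.4.6, pandas 2.3.3 and matplotlib 3.10.9 were used.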

Additional observations from a re-analysis of the deposited data

How the results depend on the processing

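Of 3599 refits of single members under other settings, 3509 kept their side of the threshold, 62 lost a call, 28 gained one and 0 changed direction with a call in either fit. In 131 the sign changed, none of them called. Most lost calls were UGT2B genes, SULT1E1, and the differences of GSTM3, GSTM4 and SULT1A2 between the INO80 siRNAs. With each library left out in turn, the number of members called ranged from 17 to 21 for siINO80#1, from 19 to 23 for siINO80#2, from 2 to 7 for the siRNAs against each other, from 11 to 16 for siMCRS1 in DMSO and from 16 to 19 in EPZ-6438. The 2 calls between the siRNAs came without siINO80#2 library A, and 3 without siINO80#1 library A or C, against 5 with every library. With families sharing sequence summed to 1 row, 3 members differed between the siRNAs, because UGT1A1 and SULT1A2 were then no longer separate rows among the 20 tested. The UGT1A sum itself differed between the siRNAs (1.40, adjusted p = 0.0057), and the sum of SULT1A1 and SULT1A2 did not pass (-0.20, adjusted p = 0.089). With a pseudocount of 5, 1 member (UGT1A9, which reached the filter only through that group) was called for EPZ-6438 in NTG, and the cause was not tested. The edgeR test called 19 members for siINO80#1, 22 for siINO80#2, 5 between them, 15 and 19 for siMCRS1 in DMSO and EPZ-6438, and 0 for EPZ-6438 and the interaction, beside 20, 21, 5, 15, 19 and 0 in limma. Deviations of same-lettered libraries of the INO80 experiment had a mean correlation of 0.10 over 9 pairs, against -0.05 over 18 other pairs. Of the same-lettered pairs 4 were over 0.1, and of the others 0. The main fit did not include the letter. A fit with the replicate letter as a block called 21, 21 and 6 members, adding UGT2A3 for siINO80#1 and between the siRNAs. Levels near 3 reads limit what can be said of GSTP1, SULT2B1 and most UGT1A rows.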
